A study of Oryza sativa with 12 samples.

Results

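The type-A cytokinin response regulators of rice were followed in the transcriptomes of roots and shoots. The members were 9 of the 57501 gene models in the deposited count table, taken by locus identifier: ORR1 to ORR7, ORR9 and ORR10. Every one of the 9 carries the response regulator receiver domain in the file's own Pfam annotation. The libraries came from polyadenylated RNA of rice plants 21 days old, grown hydroponically, and fall into 4 groups of 3 libraries. WT root and WT shoot were from the wild-type cultivar Nipponbare, and OX6 root and OX6 shoot were from OX6, a line made to overexpress Zaxinone Synthase (ZAS), a carotenoid cleavage dioxygenase that forms the growth regulator zaxinone. The labels describe 1 overexpressing line, so any other way in which its stock departs from WT cannot be told apart from ZAS overexpression. Nothing states that replicates were separate plants, and each p-value therefore covers the spread among the libraries sequenced, part or all of which may be technical. The 12 sample titles share a letter P that the labels do not explain.

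Cytokinins are adenine-derived hormones that promote cell division and shoot growth and restrain root growth. They are sensed by histidine kinase receptors, which pass phosphate through phosphotransfer proteins to the type-B response regulators, the transcription factors of the pathway. Type-A response regulators consist of little more than the receiver domain, are among the genes that cytokinin induces most rapidly, and dampen the same pathway as negative feedback regulators.

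In brief, ORR6, ORR9 and ORR10 rose 2.47- to 2.65-fold in OX6 roots, and ORR2 and ORR4 rose 1.43- and 1.28-fold. In shoots the near-identical paralogs ORR9 and ORR10 were 1.38- and 1.39-fold higher in OX6. Both of these shoot calls were lost without OX6 shoot replicate 1 and without OX6 shoot replicate 3. None of the other shoot members passed the test, and the values of ORR1, ORR2 and ORR4 were lower there. The OX6 effect differed between the organs for 6 of the 9 members, against 1.97% of all genes tested, each time being more positive in roots. For ORR1 this difference was lost in 10 of 20 alternative settings. The members were chosen with earlier results of these data known. Their shares of calls therefore stand beside those of all genes as a description, not as an independent test.

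Total counts were 32269044 to 62910092 per library. The locus taken from background knowledge as ZAS, LOC_Os09g15240, checks the genotype labels. Levels are given as CPM, counts relative to the effective library size and scaled over all 12 libraries. The locus stood at 2.54 to 2.9 CPM in the WT root libraries, 304 to 317 in OX6 root, 0.175 to 0.489 in WT shoot and 1680 to 1860 in OX6 shoot, so all 12 libraries matched their genotype. The organs were checked by markers: small subunit Rubisco and chlorophyll-binding protein genes (18 models) summed to 34.6 to 91.1 CPM in the root libraries and 126000 to 168000 in the shoot libraries. The root silicon channel NIP2-1 summed to 2500 to 3340 CPM in the root libraries and 8.51 to 17.4 in the shoot libraries.

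ORR2 (LOC_Os02g35180, chromosome 2, 21128620 to 21131370, minus strand) was the member with the most counts. Coordinates are those of the file, whose genome build is not given in the sources used here. Its level was 61.5, 55 and 62.2 CPM in WT roots and 87.7, 83.6 and 83.7 in OX6 roots. It was 167, 159 and 152 CPM in WT shoots and 139, 127 and 126 in OX6 shoots. All OX6 root libraries lay above all WT root libraries, and all OX6 shoot libraries lay below all WT shoot libraries. An exact permutation test of 3 against 3 libraries cannot give a p below 0.1, so such separation alone, here and below, is weak evidence. Its share over all genes was not counted.

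ORR4 (LOC_Os01g72330, chromosome 1, 41948952 to 41952388, plus strand) had the same order of groups at a somewhat lower level. It was at 53.5, 44.8 and 49.1 CPM in WT roots and 66.8, 61.8 and 59.3 in OX6 roots. In shoots it was at 106, 125 and 121 CPM in WT and 101, 93.7 and 94.6 in OX6. As for ORR2, the genotypes did not overlap in either organ, with OX6 on the higher side in roots and on the lower side in shoots.

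ORR6 (LOC_Os04g57720, chromosome 4, 34375978 to 34377357, plus strand) was low in WT roots, at 8.24, 8.24 and 8.92 CPM. The OX6 root libraries held 22.1, 20.3 and 20.1 CPM. The shoot libraries held 45.3, 50.4 and 51.2 CPM in WT and 42.3, 47.8 and 48.1 in OX6. The root libraries were thus split by genotype, while the shoot libraries of both genotypes overlapped.

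ORR9 (LOC_Os11g04720, chromosome 11, 2013371 to 2015405, plus strand) and ORR10 (LOC_Os12g04500, chromosome 12, 1915856 to 1917598, plus strand) are near-identical paralogs on duplicated chromosome ends, so reads may be split between them or lost from both. ORR9 was at 16.9, 17.2 and 14.9 CPM in WT roots and 50.6, 40.5 and 37.9 in OX6 roots, and at 41.1, 53.4 and 50.1 in WT shoots and 74.5, 57.1 and 67.7 in OX6 shoots. ORR10 was at 18.8, 15.7 and 16.1 CPM in WT roots and 51.9, 41.5 and 40.9 in OX6 roots, and at 68.3, 87.3 and 83.2 in WT shoots and 121, 95.8 and 116 in OX6 shoots. In both organs every OX6 library was above every WT library for each gene. OX6 replicate 1 was the highest OX6 library in roots and in shoots, and WT replicate 1 was the lowest WT library in shoots.

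ORR1 (LOC_Os04g36070, chromosome 4, 22023832 to 22027680, minus strand) was mainly a shoot transcript. Its root libraries held 2.03, 2.04 and 2 CPM in WT and 2.27, 2.4 and 3.21 in OX6, against 29.2, 26.4 and 27.4 in WT shoots and 20, 21.7 and 21.5 in OX6 shoots. The genotypes did not overlap in either organ, with OX6 above WT in roots and below it in shoots, but neither difference passed the test.

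ORR3 (LOC_Os02g58350, chromosome 2, 35689247 to 35690390, minus strand) was the 1 member with its higher level in roots. It was at 9.06, 8.26 and 8.18 CPM in WT roots and 9.42, 9.78 and 9.97 in OX6 roots. The shoot libraries held 0.49, 0.79 and 0.542 CPM in WT and 0.458, 0.387 and 0.469 in OX6. Within either organ the OX6 and WT libraries did not overlap but lay close together, and neither difference passed the test.

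ORR5 and ORR7 were near the limit of detection. ORR5 (LOC_Os04g44280, chromosome 4, 26227217 to 26228435, plus strand) was counted 1, 0 and 0 times in the roots of WT and 1, 6 and 1 times in those of OX6, then 12, 41 and 22 times in the shoots of WT and 7, 4 and 7 times in those of OX6. ORR7 (LOC_Os07g26720, chromosome 7, 15440889 to 15442180, plus strand) was counted 8, 28 and 19 times in the roots of WT and 15, 31 and 17 times in those of OX6, then 8, 47 and 50 times in the shoots of WT and 38, 49 and 24 times in those of OX6. Per library size, ORR5 was lower in every OX6 shoot library than in every WT shoot library. ORR7 overlapped between the genotypes in both organs, and its replicates differed several-fold within a group.

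**Figure D1:**
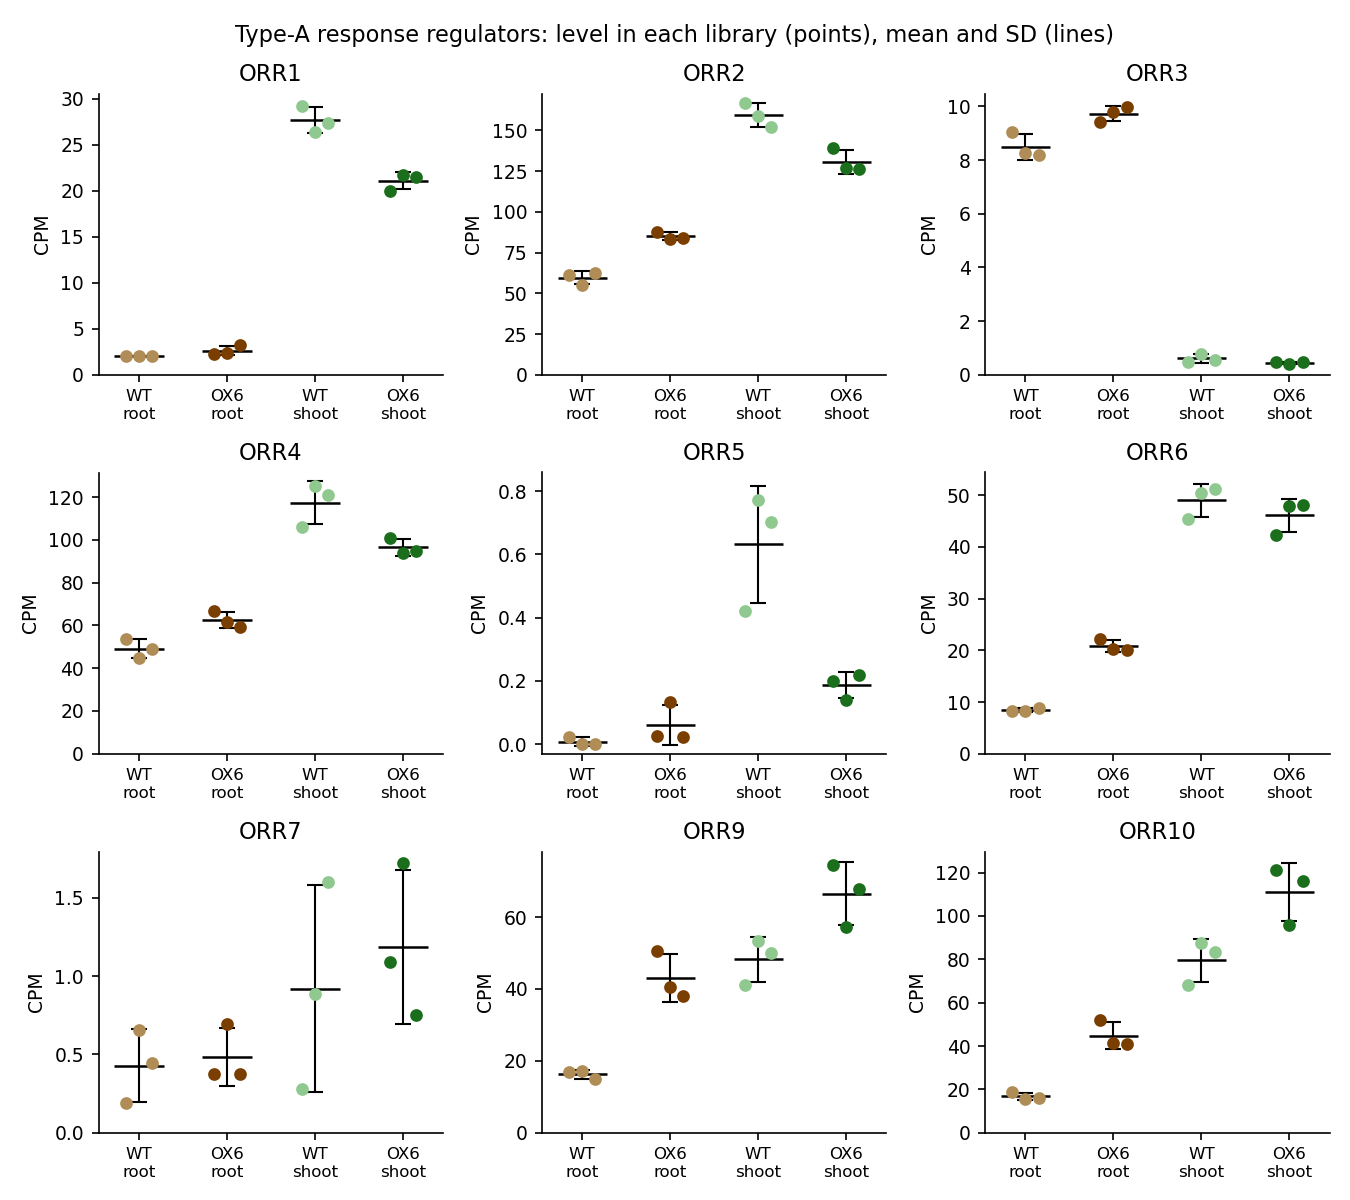
Level of each type-A response regulator in CPM (vertical axis, linear, its own scale per gene) in the 4 groups; points are libraries, and lines are the mean and SD of 3 libraries. ORR6, ORR9 and ORR10 stand apart between OX6 and WT roots, ORR3 is the gene with its high values in roots, and ORR5 and ORR7 stay below 2 CPM.

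Levels of different genes were compared as CPM per kb of the transcript length in the file. In WT roots the order was ORR2 at 35.1, ORR4 at 30.6, ORR10 at 22.7, ORR9 at 15.8, ORR3 at 11.4 and ORR6 at 6.63 CPM per kb. In OX6 roots ORR10 led at 60.3, followed by ORR2 at 50.1, ORR9 at 41.6, ORR4 at 39, ORR6 at 16.3 and ORR3 at 13 CPM per kb. In shoots ORR10 had the highest level in both genotypes, at 107 CPM per kb in WT and 149 in OX6, with ORR2 next at 94.1 and 77. Not divided by length, ORR2 was the highest of the 9 in all 4 groups.

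The summed level of the 9 genes was 131, 118 and 123 CPM per kb for WT roots and 244, 215 and 210 for OX6 roots. It was 350, 398 and 385 CPM per kb in WT shoots and 426, 370 and 406 in OX6 shoots. The sum was therefore separated by genotype in roots and overlapped in shoots, where the means were 378 ± 25 (SD, n = 3) in WT and 401 ± 28.3 in OX6. The ratio of the OX6 mean to the WT mean was 1.8 in roots and 1.06 in shoots, and shoots held 3.05 times the root level in WT and 1.8 times in OX6. The paralogs ORR9 and ORR10 together made up 31.1% of the sum in WT roots and 45.6% in OX6 roots, and 40.6% and 53.1% in the respective shoots.

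**Figure D2:**
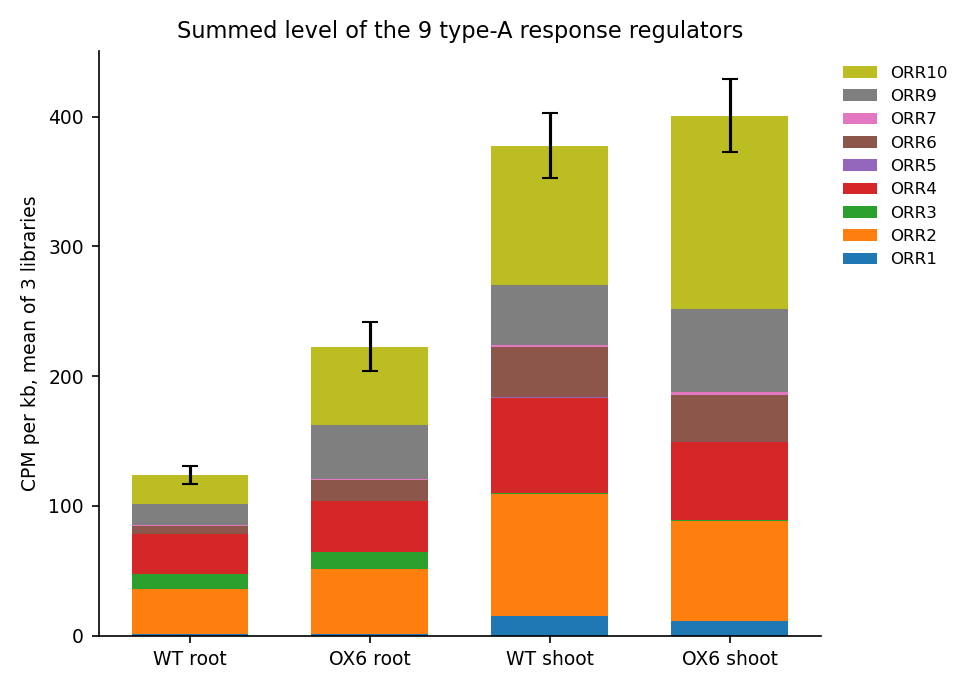
Summed level of the 9 genes in CPM per kb (vertical axis), as bars stacked by gene from group means, with the SD of the sum over 3 libraries as error bars. The OX6 root bar (223 ± 18.7) is higher than the WT root bar (124 ± 6.78), and the 2 shoot bars, at 378 and 401, lie within their error of each other.

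Roots of OX6 were compared with roots of WT to ask which genes differ in the overexpressing line. Here 5 of the 8 members tested were called higher and 0 lower, where called means an adjusted p under 0.05 in edgeR's quasi-likelihood test. Over all 26574 genes tested, 1.19% were called higher and 1.64% lower. As the members were chosen with earlier results of these data known, this contrast is no independent test. ORR7, not called, passed the count filter only through its higher group, and without it 5 of 7 members were called. With the paralogs ORR9 and ORR10 counted as 1 gene, 4 members were called. ORR10 rose 2.65-fold (log2 fold change 1.41, SE 0.0979, adjusted p = 5.42e-07). ORR9 rose 2.63-fold (1.4, SE 0.1, adjusted p = 9.33e-07) and ORR6 rose 2.47-fold (1.3, SE 0.0885, adjusted p = 2.02e-07). These 3 genes formed the upper group of the family, and their 95% intervals, from 1.11 to 1.62 on the log2 scale, overlapped.

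ORR2 and ORR4 rose less. The log2 fold change of ORR2 was 0.51 (SE 0.0665, 95% interval 0.37 to 0.66, adjusted p = 0.000217). That of ORR4 was 0.35 (SE 0.0746, 95% interval 0.19 to 0.51, adjusted p = 0.0161), and its call was lost without WT root replicate 2 (adjusted p = 0.0956), without WT root replicate 3 (0.0886) and with all 12 libraries in 1 fit (0.0908).

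The other root members were not called. ORR1 had a log2 fold change of 0.38 (95% interval -0.04 to 0.8, adjusted p = 0.427), ORR3 of 0.2 (-0.02 to 0.41, adjusted p = 0.419) and ORR7 of 0.18 (-0.84 to 1.19, adjusted p = 0.93). ORR5 had too few root counts to be tested. Its 8 counts in OX6 against 1 in WT give a ratio of 7.91 with an exact interval of 1.06 to 351, which covers counting error only. The median log2 fold change of the 8 tested members was 0.44 (0.51 without ORR7), against 0 over all genes tested.

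Markers were read in the same root libraries. Genes of dividing cells, namely B-type cyclins and B-type cyclin-dependent kinases, replication licensing factors and histones (46 models), summed to 1780 to 1830 CPM in WT roots and 1780 to 2000 in OX6 roots. Of 39 tested, 0 were called by edgeR, 8 had an unadjusted p under 0.05, and DESeq2 called 1 and limma-voom 0. The shoot markers summed to 56.5 to 91.1 CPM in WT roots and 34.6 to 63.2 in OX6 roots, with 1 of 16 tested called lower and 2 of 18 models at 0 in every root library. Of the 16, 4 had an unadjusted p under 0.05 in edgeR, and DESeq2 called 2 and limma-voom 1. The part of either in the result was not tested. In bulk samples, fewer cells of a type and less RNA per cell cannot be told apart.

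In shoots, 2 of the 9 members were called higher in OX6 and 0 lower, while 3.18% of the 26251 genes tested were called higher and 2.46% lower. ORR5 and ORR7 passed the count filter only through their higher group, and without them 2 of 7 members were called. ORR10 had a log2 fold change of 0.47 (SE 0.118, 95% interval 0.22 to 0.72, adjusted p = 0.0225) and ORR9 of 0.46 (SE 0.123, 0.2 to 0.72, adjusted p = 0.0333). Both calls were lost without OX6 shoot replicate 1 (adjusted p = 0.146 for ORR10 and 0.205 for ORR9) and without OX6 shoot replicate 3 (0.13 and 0.147), and that of ORR9 also without WT shoot replicate 1 (0.0782). DESeq2 called 4 members, these 2 with ORR1 and ORR2 on the lower side.

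The remaining shoot values were not called. ORR1 had a log2 fold change of -0.4 (95% interval -0.64 to -0.15, adjusted p = 0.0526), just above the threshold, and it was called lower in 5 of 15 alternative settings, with an adjusted p of 0.0268 to 0.0497. ORR2 and ORR4 both had -0.29, with 95% intervals of -0.5 to -0.08 and -0.5 to -0.07 (adjusted p = 0.103 and 0.121). ORR2 was called lower in 2 and ORR4 in 1 of 15 alternative settings. ORR6 had -0.09 with a 95% interval of -0.31 to 0.13 (adjusted p = 0.726). The scarce transcripts ORR3 (-0.48, 95% interval -1.68 to 0.71), ORR5 (-1.74, -3.13 to -0.36) and ORR7 (0.36, -0.79 to 1.51) had wide intervals and adjusted p-values of 0.725, 0.145 and 0.802. The median over the 9 members was -0.29, and the same without ORR5 and ORR7, against -0.01 over all genes tested.

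The shoot markers were also lower in OX6 shoots, at 126000 to 133000 summed CPM against 151000 to 168000 in WT, with 5 of 16 tested called lower and 1 of 18 models at 0 throughout. Of the 16, 14 had an unadjusted p under 0.05 in edgeR, and DESeq2 called 9 and limma-voom 7. Dividing cell markers summed to 1190 to 1720 CPM for WT and 1400 to 1580 for OX6. Of 38 tested, 0 were called by edgeR, 4 had an unadjusted p under 0.05, and DESeq2 called 1 and limma-voom 0. The part of these markers in the shoot values was not tested.

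**Figure D3:**
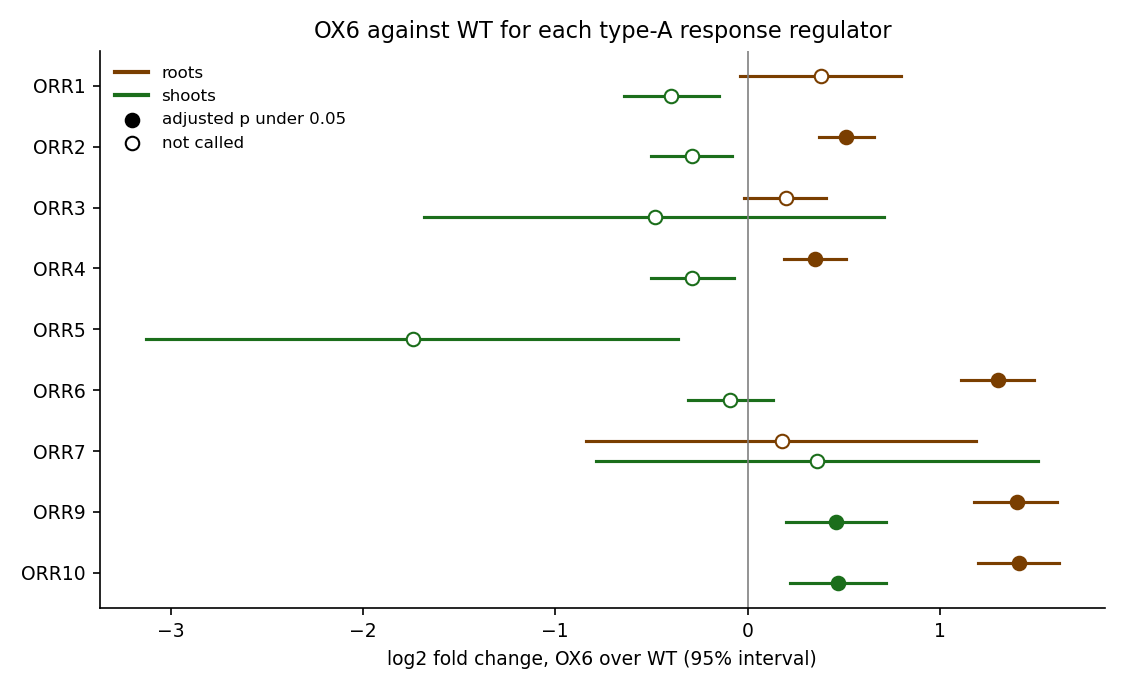
Log2 fold change of OX6 over WT (horizontal axis) with its 95% interval for each gene in roots and in shoots; filled points were called by edgeR. The called root values run from 0.35 for ORR4 to 1.41 for ORR10, while in shoots ORR9 and ORR10 are called at 0.46 and 0.47. ORR5 was not tested in roots.

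Whether the OX6 effect differed between the organs was tested directly, as the root log2 fold change minus the shoot log2 fold change in 1 fit of 12 libraries. The difference was called for 6 of the 9 members, all more positive in roots, against 1.97% of the 29042 genes tested. Here too, the members had been chosen with earlier results of these data known. Of all genes called here, 35.1% were more positive in roots, and 47.1% with upper-quartile scaling. ORR6 differed most among the called members, by 1.39 (SE 0.131, adjusted p = 9.67e-06). ORR9 and ORR10 each differed by 0.93 (SE 0.179 and 0.171, adjusted p = 0.00787 and 0.00552), so their rise was larger in roots than in shoots.

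ORR2 differed by 0.8 (SE 0.116, adjusted p = 0.000667) and ORR4 by 0.63 (SE 0.128, adjusted p = 0.0113). ORR1 differed by 0.77 (SE 0.187, adjusted p = 0.04), a call that did not hold in 10 of 20 alternative settings, in which the adjusted p was 0.0504 to 0.134. These were limma-voom, the replicate number as a block, and the fits without OX6 root replicate 2 or 3 or any 1 of the WT root or OX6 shoot libraries. ORR3 (0.71, adjusted p = 0.324), ORR5 (4.3, adjusted p = 0.154) and ORR7 (-0.18, adjusted p = 0.985) were not called. In the 12-library fit ORR5 passed the count filter through WT shoots alone, and without it 6 of 8 members were called. Counting ORR9 and ORR10 as 1 gene gave 5 calls.

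Between the organs themselves, the levels in WT were compared in the same fit. Leaving aside ORR5, 6 of 8 members were higher in shoots, 1 was higher in roots and 1 was not called, where 35.4% of all genes tested were called higher in shoots and 37.6% higher in roots. In WT shoots ORR1 was 13.6-fold higher than in WT roots (adjusted p = 3.19e-14), ORR6 5.78-fold (adjusted p = 6e-14) and ORR10 4.72-fold (adjusted p = 1.92e-11). ORR9, ORR2 and ORR4 were 2.95-, 2.68- and 2.39-fold higher in WT shoots. ORR3 was 13.4-fold higher in WT roots (adjusted p = 7.92e-12). ORR5 had 12 to 41 counts per WT shoot library against 0 or 1 per WT root library. Since it entered the fit through the WT shoot libraries alone, it had to differ and is given without a test. ORR7 was not called (adjusted p = 0.0968).

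In OX6 the same comparison, again without ORR5, called 6 of 8 members higher in shoots, 1 higher in roots and 1 in neither direction, where 36.5% and 37.3% of all genes tested were called higher in shoots and in roots. The shoot-to-root ratios in OX6 were 7.98 for ORR1, 2.21 for ORR6, 2.47 for ORR10, 1.55 for ORR9 and 1.54 for both ORR2 and ORR4. ORR3 was 21.9-fold higher in OX6 roots than in OX6 shoots (adjusted p = 1.76e-12). ORR7 was not called (adjusted p = 0.0518), and ORR5 had 1 to 6 counts per OX6 root library and 4 to 7 per OX6 shoot library.

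The order of the 4 groups took 3 forms. ORR1, ORR2, ORR4, ORR5 and ORR6 were ordered WT shoot, OX6 shoot, OX6 root, WT root from high to low. ORR7, ORR9 and ORR10 were ordered OX6 shoot, WT shoot, OX6 root, WT root, and ORR3 was ordered OX6 root, WT root, WT shoot, OX6 shoot. Neighbours in these orders overlapped between libraries for ORR6 in WT and OX6 shoots, ORR9 in WT shoots and OX6 roots, ORR5 in OX6 and WT roots, and ORR7 throughout.

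The ORR9 and ORR10 pair was further described by the share of ORR9 in their summed counts. The share was 47.3, 52.2 and 48.2% in WT roots and 49.3, 49.4 and 48.1% in OX6 roots. It was 37.6, 38 and 37.6% in WT shoots and 38.2, 37.3 and 37% in OX6 shoots. All 6 root libraries were above all 6 shoot libraries, by 11.5 percentage points on average (exact two-sided permutation test, p = 0.00216, the smallest that 6 against 6 libraries can give).

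Between the genotypes, the share differed by -0.3 points in roots (exact permutation test, p = 0.9) and by -0.233 points in shoots (exact permutation test, p = 0.6), OX6 minus WT, where 3 against 3 libraries cannot go below 0.1. The pair's summed level meanwhile was 33.2 ± 2.35 CPM in WT roots, 87.8 ± 12.9 in OX6 roots, 128 ± 16.4 in WT shoots and 177 ± 21.8 in OX6 shoots (SD, n = 3). How reads that match both genes were counted is not given in the sources used here. ORR9 also overlaps a gene model on the other strand, whose part in the share was not tested.

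**Figure D4:**
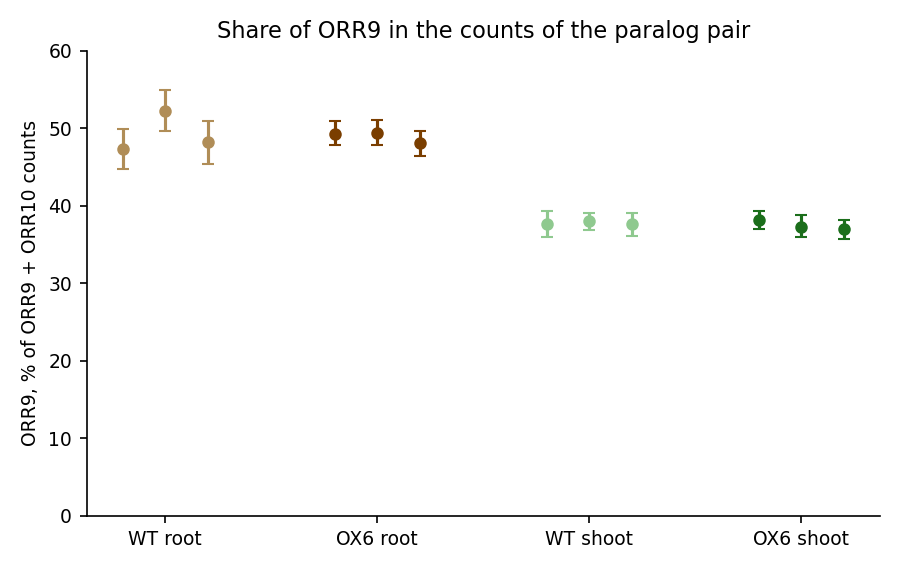
ORR9 as a percentage of the summed ORR9 and ORR10 counts (vertical axis) in each library, with exact binomial 95% intervals that cover counting error only, on 1331 to 7479 counts per library. The root libraries lie between 47.3 and 52.2% and the shoot libraries between 37 and 38.2%, with both genotypes overlapping within an organ.

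Deviations from the organ mean were compared between members over the 12 libraries, on log2 CPM with a prior count of 2. They share the genotype groups, so the coefficients are a description. The 36 pairs of members had Pearson correlations of -0.23 to 0.99, with a median of 0.56. The 10 pairs among ORR2, ORR4, ORR6, ORR9 and ORR10, the members called in roots, lay between 0.55 and 0.99. Of these, ORR9 with ORR10 was at 0.99, ORR6 with ORR10 at 0.89 and ORR2 with ORR4 at 0.88. As these members were taken for their genotype difference, their likeness follows in part from the choice. Pairs that held another member ran from -0.23 to 0.79, the highest being ORR3 with ORR5 and ORR4 with ORR5. The 8 pairs with ORR7 lay between -0.23 and 0.23.

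Among 17486 other genes compared in the same way, the likeness to the called members was led by the following. For ORR9 and ORR10 the closest gene was the respective paralog (r = 0.992), followed by unnamed models, of which LOC_Os07g32710 (r = 0.954 with ORR9 and 0.958 with ORR10) had mean levels of 0.0859 CPM in WT roots, 411 in OX6 roots, 1.15 in WT shoots and 56.6 in OX6 shoots. LOC_Os02g11705 followed ORR9 at 0.964, and LOC_Os04g59340 followed ORR10 at 0.95. Both were higher in OX6 roots, 4.46-fold and 1.85-fold. The unnamed models were all picked for likeness to ORR9 or ORR10 in these libraries, so their rise follows from the choice and is no separate result.

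For ORR2 the closest were purple acid phosphatase 22 (LOC_Os11g05400, r = 0.962), a protein named after Arabidopsis At1g66480 (LOC_Os08g33210, 0.946) and protein phosphatase 2C 20 (LOC_Os02g38780, 0.945). Purple acid phosphatases release phosphate from organic compounds, and this one had 13.2 ± 2.24 CPM in WT roots, 29.4 ± 4.54 in OX6 roots, 37.6 ± 7.37 in WT shoots and 21.7 ± 1.18 in OX6 shoots. For ORR4 they were an unnamed model (LOC_Os07g06660, 0.95), the cell wall loosening protein Expansin-A4 (LOC_Os05g39990, 0.934) and a plastid-lipid-associated protein (LOC_Os03g49720, 0.89). For ORR6 they were temperature-induced lipocalin-1 (LOC_Os02g39930, 0.926), the transcription factor bHLH93 (LOC_Os03g04310, 0.907) and a phosphoglycerate mutase (LOC_Os12g35040, 0.903). Without centring on the organ, the last 2 ran opposite to ORR6, at -0.838 and -0.75. The genes named for ORR2, ORR4 and ORR6 were likewise picked for likeness in these libraries. Their differences between OX6 and WT follow from that choice and are no separate result.

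The rest of the cytokinin pathway was read from 10 lists of names, 93 models in all. In roots 2 of 58 tested models were called higher and 2 lower, with a median log2 fold change of 0.01, and in shoots 0 of 56 were higher and 4 lower, with a median of -0.13. The shares of all genes called, given above, were 1.19% higher and 1.64% lower in roots and 3.18% and 2.46% in shoots, so few calls would fall in lists of this size at those shares. One group of lists comprises the receptors, phosphotransfer proteins, type-B and type-C regulators, other type-A regulators and synthesis genes. In each organ 22 of its models were tested, of which 3 had an unadjusted p under 0.05 in edgeR. The receptor list holds models named probable histidine kinase, and the phosphotransfer list includes models named pseudo phosphotransfer proteins. Whether each acts in cytokinin signalling was not tested. In the fits of 6 libraries edgeR, DESeq2 and limma-voom each called 0 of the 22, a number too small to set these lists apart from the share of all genes. With all 12 libraries in 1 edgeR fit, the type-B regulator ORR21 (LOC_Os03g12350) was called in shoots (log2 fold change 0.31, adjusted p = 0.03, against 0.137 with 6 libraries), a gene named after its value was seen.

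Upstream of the type-A regulators, the gene of each list with the most counts over all 12 libraries was not called in either organ. The receptor HK3 (LOC_Os01g69920) had 139 CPM in WT roots and 131 in OX6 roots, and 61.2 and 63.9 in the shoots. The phosphotransfer protein HP1 (LOC_Os08g44350) had 50.7 and 49.4 CPM in roots and 23 and 24.7 in shoots, and the type-B regulator ORR24 (LOC_Os02g08500) had 64.7 and 66.9 in roots and 27 and 31.9 in shoots. These led their lists in roots, whereas in WT shoots HK5 (LOC_Os10g21810) at 76.3 CPM, HP2 (LOC_Os09g39400) at 30.5 and ORR23 (LOC_Os02g55320) at 33.8 were higher. Of the 4 further type-A models, ORR8, ORR11, ORR12 and ORR13, 1 was tested and in shoots alone: ORR11 (LOC_Os02g42060), at 1.26 ± 0.12 CPM in WT and 1.76 ± 0.437 in OX6, was not called (adjusted p = 0.525). The most abundant synthesis gene, a tRNA isopentenyl transferase (LOC_Os01g73760), had 24 and 24.8 CPM in roots and 20.5 in the shoots of both genotypes. The type-C regulators ORR41 and ORR42 were too scarce to test.

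The calls in the lists lay in genes of cytokinin activation, breakdown, conjugation and transport. In roots they were 2 higher and 2 lower of 58 tested, against 1.19% and 1.64% of all genes. In shoots they were 4 lower of 56 tested, against 2.46% of all genes. A model named cytokinin hydroxylase (LOC_Os08g33300), an enzyme that makes trans-zeatin forms, fell from 13.7 ± 0.558 to 5.9 ± 0.218 CPM in OX6 roots (adjusted p = 1.68e-06). Its shoot levels were 3.58 and 4.15 CPM. A model of the same name with more root counts, LOC_Os09g23820, had 60.8 ± 8.7 CPM in WT roots and 52 ± 3.56 in OX6 roots. It was not called there (adjusted p = 0.29). Among cytokinin dehydrogenases, which degrade the hormone, CKX3 (LOC_Os10g34230) rose from 24 ± 0.915 to 33.4 ± 2.21 CPM in roots (adjusted p = 0.00115, lost with all 12 libraries in 1 fit at 0.0794). CKX9 (LOC_Os05g31040) fell from 2.75 ± 0.138 to 1.09 ± 0.256 CPM in roots (adjusted p = 0.00258). The dehydrogenase with the highest level in both organs, CKX11 (LOC_Os08g35860), was not called in either. Its levels were 68.5 CPM in WT roots, 67.3 in OX6 roots, 29.5 in WT shoots and 24.4 in OX6 shoots.

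In OX6 shoots CKX3 fell from 18.6 ± 3.04 to 10 ± 1.29 CPM (adjusted p = 0.00225) and CKX4 (LOC_Os01g71310) from 22.4 ± 2.45 to 12.6 ± 2.87 CPM (adjusted p = 0.00364). A model of the conjugating enzyme cis-zeatin O-glucosyltransferase 1 (LOC_Os04g46990) fell from 27.4 ± 4.35 to 14.2 ± 1.43 CPM in shoots (adjusted p = 0.000356). Scarcer models of that name were not called in shoots. LOC_Os04g46980 had 2.78 CPM in WT and 3.19 in OX6, and LOC_Os04g47720 had 0.745 and 0.548. Purine permeases are a family whose members can carry cytokinins, and a model named purine permease 4 (LOC_Os01g31940) fell from 42.2 ± 1.62 to 25.8 ± 3.84 CPM in shoots (adjusted p = 0.00135). Another model of that name, LOC_Os01g48800, had 3.33 CPM in WT shoots and 1.97 in OX6 shoots and was not called (adjusted p = 0.17). A model named purine permease 3 (LOC_Os03g08880) rose from 11.6 to 15 CPM in roots (adjusted p = 0.0459), a call that did not hold in 8 of 15 alternative settings, which included leaving out OX6 root replicate 1 or 2 or any 1 of the 3 WT root libraries. Another model of that name, LOC_Os09g29239, went the other way in roots, from 17.7 to 14.3 CPM, and was not called (adjusted p = 0.0984).

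A pair of members overlap a gene model on the other strand, and since the strand setting of the counting is not given in the sources used here, their reads may be mixed. LOC_Os04g36062, which overlaps ORR1, held 7217 counts in all libraries against 5697 for ORR1 and was not called in roots (log2 fold change -0.01, adjusted p = 0.993) or shoots (-0.28, adjusted p = 0.161). LOC_Os11g04730, which overlaps ORR9, held 2480 counts against 19600 and was not called either (0.2 and 0.17, adjusted p = 0.577 and 0.77). These values compare the genotypes. The part of mixed reads in the organ differences of ORR1 and ORR9, and in the ORR9 share, was not tested.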

How the data were processed

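Polyadenylated RNA of roots and shoots was sequenced from 12 libraries. The authors deposited raw counts of reads for each gene model. Per the submitters' processing notes, the tools were HISAT2 2.0.5 (alignment) and featureCounts 1.5.0-p3 (counting). Not given in the sources used here are the genome build, annotation, strand setting and treatment of multiply matching reads, so paralogs and overlapping models may share or lose reads. Groups and replicate numbers come from the sample titles, whose letter P is unexplained and was not used. A gene table of another assembly was not used here, and no sequences are printed.

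Counts were tested with edgeR 4.0.16 (R 4.3.3), by the robust quasi-likelihood test with TMM scaling, filterByExpr (minimum count 10, minimum total 15), two-sided p-values and Benjamini-Hochberg adjustment over all genes tested. OX6 was compared with WT in 2 fits of 6 libraries, and organ differences in 1 fit of 12. Replicates varied by 9.61% (roots), 16.2% (shoots) and 13.2% (all libraries), as the biological coefficient of variation. Computations were tested on simulated data. Replicates of a group differed by a chi-square per gene of 5.31 to 28, above sampling noise, so each library was counted once.

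The members and lists were chosen with earlier results of these data known. Lists were matched by the names in the file, dropping a calcyclin-binding model from the dividing cell list. The silicon transporter LSI2 matched no name. Named are all members, ZAS, up to 3 called genes of smallest adjusted p per list (or the most abundant), and the 3 genes most alike to each member called, among genes of at least 5 CPM tested in both organs. Alternatives tried were other scaling (RLE, upper-quartile), no filter or 1 of CPM above 1 in 3 libraries, other tools (limma-voom, limma 3.58.1, and DESeq2 1.42.0), all 12 libraries in 1 fit, a replicate block, ORR9 and ORR10 as 1 gene, and each library left out.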

Additional observations from a re-analysis of the deposited data

Results flagged for a closer look

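The OX6 effect differed between roots and shoots for 6 members, by the interaction term of edgeR over 12 libraries. On the log2 scale, root effect minus shoot effect, the difference was 0.77 for ORR1, 0.8 for ORR2, 0.63 for ORR4, 1.39 for ORR6, 0.93 for ORR9 and 0.93 for ORR10. The call of ORR1 was lost in 10 of 20 alternative settings. It was also called for 5 named genes that are not members. These were the ZAS locus LOC_Os09g15240 (-5.56, adjusted p = 7.11e-10), whose rise was larger in shoots, cytokinin hydroxylase LOC_Os08g33300 (-1.43, adjusted p = 0.00214), CKX3 LOC_Os10g34230 (1.35, adjusted p = 0.00028), CKX4 LOC_Os01g71310 (1.04, adjusted p = 0.0108) and purine permease 4 LOC_Os01g31940 (0.67, adjusted p = 0.0336). The call of purine permease 4 was lost in 7 of 20 alternative settings, each leaving out 1 library (any WT root library, OX6 root replicate 1 or 3, OX6 shoot replicate 2 or 3). No cause was tested for these differences.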

How the results depend on the processing

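ORR2, ORR6, ORR9 and ORR10 were called in roots in all 15 alternative settings, and 4 to 5 members were called there in each. In shoots 2 members were called, against 4 with DESeq2, 4 with all 12 libraries in 1 fit, 1 when ORR9 and ORR10 were counted as 1 gene, and 0 to 2 with each library left out. The interaction called 5 to 6 members. Genes called in roots numbered 753, against 293 with all 12 libraries in 1 fit and 407 to 773 with a library left out, and in shoots 1481, against 2459 and 708 to 1877. The interaction called 572 genes, of which 35.1% were more positive in roots, against 1207 and 49.8% with DESeq2, and 47.1% with upper-quartile scaling. ORR7 changed sign with a library left out: its log2 values then ran from -0.187 to 0.614 in roots, from -0.0471 to 0.972 in shoots and from -0.728 to 0.277 for the interaction. Likeness to ORR6 without organ centring was -0.838 for bHLH93 and -0.75 for the phosphoglycerate mutase. The cause of these changes was not tested. Same-numbered samples did not deviate together, with correlations of -0.06 to 0.05 within an organ and -0.02 to 0.02 between the organs of a genotype. Whether equal numbers mark a shared plant or batch was not tested. With a replicate block 796, 1454 and 471 genes and 5, 2 and 5 members were called in roots, shoots and the interaction. Depth limits ORR5 and ORR7, which held 102 and 334 counts over 12 libraries. Without a filter 1113 genes were called in roots and 2220 in shoots, and with DESeq2 1013 and 2027. Upper-quartile scaling moved the median of all genes by 0.099 in the WT and 0.148 in the OX6 organ comparison, with the members' directions kept.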
